A study of Drosophila melanogaster with 14 samples.

Results

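Gene expression was compared between wild-type female and wild-type male Drosophila melanogaster, using the 6 wild-type arrays of a series of 14, 3 of females and 3 of males. These arrays are the control groups of a study of sesB1, a point mutation in the gene for an adenine nucleotide translocase, the carrier that trades ADP for ATP at the mitochondrial inner membrane. Every fly measured here was the F1 offspring of Canton S wild-type females crossed to Oregon R wild-type males, so that all 6 arrays share a mixed background of 2 laboratory strains. Females were virgins, collected apart from males, and total RNA was extracted from whole flies with Trizol. The sample labels give an age of 2 days for both sexes, whereas the description of the series says that the flies were aged for 1 day. The sesB1 arrays, 4 of females and 4 of males from an F1 of the same 2 strains into which the mutation had been backcrossed, were left out of the wild-type comparison and enter only where the sex difference of wild type is set beside that of sesB1.

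Female and male flies share their body plan but not their gonads, and the gonads make up a large share of a young adult. In Drosophila the ovary contains nurse cells that load the oocyte with mRNA and protein, and follicle cells that secrete the vitelline membrane and the chorion around it, while the female fat body makes yolk proteins that the oocyte takes up. The testis runs a transcription programme of its own in spermatocytes, much of it from duplicated genes used nowhere else, and the accessory glands, ejaculatory duct and ejaculatory bulb make the proteins of seminal fluid. Somatic sex is set by alternative splicing, with Sxl acting on tra and tra acting on dsx and fru.

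The values are log2 signals of Affymetrix Drosophila 2.0 probesets, normalized by the authors and centred so that the median of each probeset over the 14 arrays is 0. Centring removed how bright each probeset was, so genes are compared by their difference between the sexes and not by level, and whether a transcript was absent from 1 sex cannot be read from them. A difference is given below as log2, females minus males, so that a positive value means higher in females. Females were compared with males by limma over 18769 probesets, with Benjamini-Hochberg adjustment over all of them. A probeset or gene was called at an adjusted p under 0.05 with a difference of at least 2-fold. The labels call the arrays of a group biological replicates.

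The arrays of each sex resembled each other closely. Over all probesets the female arrays correlated with each other at r from 0.968 to 0.982 and the male arrays at r from 0.94 to 0.962. Female and male arrays correlated at r from -0.769 to -0.733. Centring each probeset over arrays of both sexes favours negative values between the sexes and positive values within a sex. The sign between the sexes is therefore no result of its own. Wild-type male array 2 stood apart from the other male arrays in 1 respect. Among 72 genes that were at least 32-fold higher in females when that array was left out, it read above both other male arrays for 69, or 95.8%. The median excess over the mean of the other male arrays was 1.65, which put male array 2 at a median of 4.6% of the female level, against 1.35% for male arrays 1 and 3. Over 451 genes at least 32-fold higher in males the same array differed from the others by a median of -0.03. What raised female transcripts in this array was not tested. For some genes that are high in females, results are given below with it and without it. Other such genes are given with all 6 arrays only, and their differences can be smaller than without it. For osk the fold was 121 with all arrays and 315 without this array, for Vm34Ca 95.4 and 252, and for mtrm 82.1 and 162.

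Sex-biased expression was widespread. Of 18769 probesets, 3398 (18.1%) were called higher in females and 2643 (14.1%) higher in males. Taking 1 probeset for each of 11981 genes, 2847 genes (23.8%) were called higher in females and 2267 (18.9%) higher in males. The female arrays all lay above the male arrays for 5313 genes (44.3%) and all below for 3922 (32.7%), and the ranges overlapped for 2746 (22.9%). Leaving out male array 2 gave 2895 and 2273 called genes. The arrays of females had slightly higher medians than those of males, so that the median difference over all genes was 0.14. Centring each array on its median moved this to -0.003, and the share of called genes that were higher in females was then 50.6%, against 55.7% in the values as deposited and 52.8% after quantile normalization. Differences smaller than about this shift in a gene list therefore have no settled direction.

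In the values as deposited the directions differed in size more than in number. The median difference was 1.76 among genes higher in females and -2.94 among genes higher in males. After quantile normalization these medians lay closer in size, at 2.08 and -2.42. With arrays centred on their medians they were 1.73 and -2.75. As deposited, at least 8-fold differences were found for 380 genes higher in females and 1111 higher in males, and at least 32-fold differences for 62 and 443. Beyond 128-fold there were 6 genes higher in females and 99 higher in males. Male array 2 bears on the far end of the female side, since without it the counts at 128-fold were 22 and 97. At 32-fold they were 72 and 451, so that the larger number of strongly male genes was there with or without this array. The distribution of differences falls off steeply on the female side and has a broad shoulder on the male side.

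**Figure D1:**
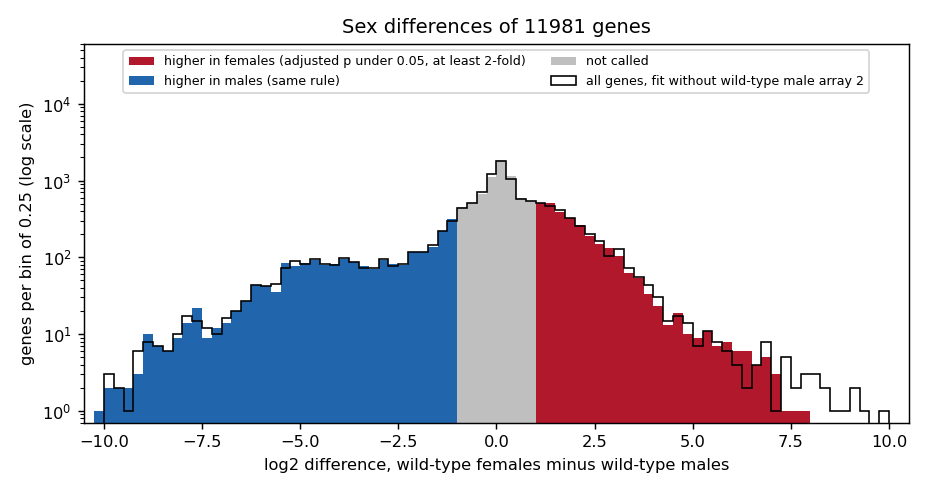
Histogram of the log2 difference between wild-type females and wild-type males over 11981 genes, in bins of 0.25 on a log scale of gene number. Red bars are the 2847 genes called higher in females, blue bars the 2267 called higher in males and grey bars the genes not called, and the black outline is the same difference over all genes without wild-type male array 2, which reaches 9.98 on the female side.

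The genes with the highest female expression relative to males were those of yolk and eggshell. Yp1, Yp2 and Yp3 encode the yolk proteins. In RNA of whole flies, fewer cells of a type and less RNA per cell cannot be told apart. Yp1 read 1.04, 1.02 and 1.01 in the female arrays, against -8.81, -0.89 and -9.10 in the male arrays. Yp2 read 1.32, 1.39 and 1.37 in females, against -7.55, -1.32 and -7.36 in males. For both genes the females agreed to within 0.1, and male array 2 lay far above the other 2 male arrays while still below every female. The difference of Yp1 was 7.29 ± 1.82 (SE, limma adjusted p = 0.00667, 3 arrays a sex), or 157-fold, and 9.98, or 1011-fold, without male array 2. Yp2 was 109-fold higher in females with all arrays and 451-fold higher without that array, and Yp3 was 102-fold and 302-fold higher. The receptor that takes yolk protein into the oocyte, yl, was 42.2-fold higher in females (adjusted p = 4.69e-06). The remaining gene of the yolk and female fat body list, fit, a secreted protein of the female fat body, was not called. It read -0.14, -0.18 and 0.71 in females, against -0.09, 0.13 and 0.09 in males, so the sexes overlapped.

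All 8 measured genes of the chorion list and all 8 of the vitelline membrane list were higher in females, with median differences of 7.02 and 4.23. Cp36 and Cp38 are the main chorion genes of the X chromosome, and Cp15, Cp16, Cp18 and Cp19 those of chromosome arm 3L. Cp19 read 3.92, 3.83 and 3.56 in females, against -5.54, -0.69 and -5.65 in males. Cp15 read 4.25, 4.14 and 4.15 in females, against -3.41, -0.97 and -3.53 in males. These 6 genes lay between 113-fold (Cp15) and 212-fold (Cp19) higher in females with all arrays. Without male array 2 Cp15 was 201-fold and Cp19 659-fold higher. Among genes of the vitelline membrane, Vm34Ca was 95.4-fold higher in females, Vm26Aa 88.5-fold and Vm32E 27.5-fold. Vm32E differs from the others in that male array 2 read -2.63, close to -3.03 and -2.79 in male arrays 1 and 3. The females were less uniform for this gene, at 1.37, 2.71 and 1.81.

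The gene with the largest difference in the female direction with all 6 arrays was Muc12Ea, which encodes a mucin. It read 6.16, 5.73 and 6.19 in females, against -2.37, -0.75 and -2.11 in males, a difference of 7.77 ± 0.36 (218.5-fold, adjusted p = 7.09e-08). The egg thioredoxin dhd was 121-fold higher in females. Of the 12 genes highest in females, 11 thus belong to yolk, chorion or the oocyte, and the 12 were taken from genes with no overlap between the sexes.

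**Figure D2:**
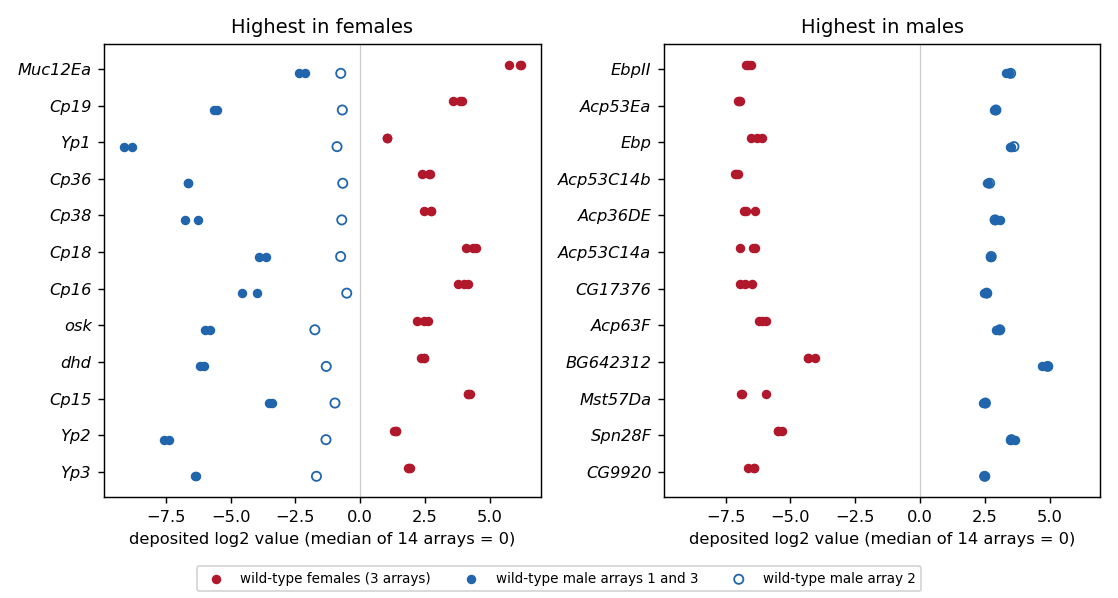
Deposited log2 values of the 12 genes with the largest differences in each direction, one row a gene, with wild-type females in red (3 arrays), wild-type male arrays 1 and 3 in filled blue and wild-type male array 2 as an open blue circle. In the left panel the open circle lies between females and the other males, and in the right panel it lies among the other males.

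Maternal transcripts of the oocyte were measured as well. Of 22 measured genes of the oocyte patterning list, 13 were higher in females and 3 higher in males, with a median difference of 1.88. osk, which assembles the germ plasm at the posterior pole, read 2.45, 2.20 and 2.60 in females, against -5.99, -1.75 and -5.78 in males (121-fold). Its other 2 probesets were also higher in females, by 7.23 and 5.99. nanos, the posterior repressor of translation, was 92.7-fold higher in females and orb, which regulates translation in the oocyte, 73-fold. The anterior determinant bcd differed by 5.89. Other genes of the list differed less, with 0.62 for vas and 0.38 for tud, neither of them called. The 3 genes higher in males were exu, dl and tsl, of which dl was higher in females on its other probeset, by 1.85.

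exu, which is needed to localise bcd mRNA, went the other way on the probeset used here. It read -4.85, -5.04 and -4.64 in females, against 2.92, 2.88 and 2.82 in males, a difference of -7.71. The gene is known to make transcripts with different 3' ends in ovary and testis, and its other probeset differed by 0.19 and was not called. The value of -7.71 holds for that probeset and not for the gene as a whole.

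Genes of the piRNA pathway, which silences transposons in the germ line, were higher in females for 16 of 17 measured members, with a median difference of 3.34. piwi read 2.91, 2.94 and 3.10 in females, against -2.53, -1.69 and -2.25 in males, a difference of 5.14 ± 0.19 (adjusted p = 1.33e-08). krimp was 19.2-fold, spn-E 17.3-fold and shu 16.9-fold higher. Over the list male array 2 was raised above the other males by a median of 0.26. For piwi, krimp, spn-E and shu it was raised by 0.70, 0.42, 0.79 and 0.51. DNA replication and mitosis genes showed the same direction in 16 of 17, with a median of 4.6. Among them CycB, the mitotic cyclin, was 86.8-fold higher in females and 214-fold without male array 2. RnrL, the large subunit of ribonucleotide reductase, was 45.4-fold higher, and the replicative helicase subunits Mcm5 and Mcm2 were 43.7-fold and 38.4-fold higher.

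Of 15 genes for female meiosis and egg activation, 10 were higher in females and ord, a cohesion protein used in meiosis of both sexes, was higher in males by 1.08 on the log2 scale. mtrm, which holds Polo kinase in check during oocyte meiosis, was 82.1-fold higher in females. gnu and plu, activators of the PNG kinase of the early embryo, were 63.4-fold and 18.1-fold higher, and wisp, a poly(A) polymerase of the late oocyte, 30.8-fold. In contrast the recombination genes mei-W68 and mei-P22 differed by 0.15 and 0.46 and were not called.

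Outside the ovary, the spermathecae gave a set of female proteases. Of 8 measured genes 6 were higher in females and 1 was higher in males. Send1, a serine protease of the spermathecal secretory cells, read 1.45, 1.27 and 1.57 in females, against -4.05, -4.01 and -4.20 in males (45.9-fold, adjusted p = 1.75e-10). Male array 2 was not raised for Send1, in contrast to yolk and chorion genes. CG32833 was listed with these proteases but was 11.3-fold higher in males, reading -1.08, -1.11 and -1.48 in females, against 2.23, 2.20 and 2.39 in males. Of the enzymes that make the female pheromones, the desaturase Fad2 was 62.1-fold and the elongase eloF 23-fold higher in females. Fad2 read -4.93, -2.60 and -4.39 in males, so that male array 2 was again the highest male.

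With all 6 arrays the largest differences were those of seminal fluid genes. All 6 measured genes of the ejaculatory duct and bulb and 24 of 25 accessory gland genes were higher in males, with median differences of -8.32 and -6.96. EbpII, a protein of the ejaculatory bulb, read -6.71, -6.53 and -6.63 in females, against 3.32, 3.49 and 3.43 in males. Its difference of -10.04 ± 0.09 (1051-fold, adjusted p = 1.5e-11) was the lowest of all genes. Without male array 2 it was -9.999, and that of Yp1, in the female direction, was then 9.98. The lead of EbpII over Yp1 was therefore narrow without that array. At 512-fold or more there were then 4 genes higher in females and 12 higher in males, against 0 and 10 with all arrays. Ebp, another protein of the bulb, read -6.10, -6.30 and -6.50 in females, against 3.45, 3.62 and 3.52 in males. No male array stood apart for either gene. Dup99B, a duct peptide related to sex peptide, was 494-fold higher in males, and Anp, the antibacterial peptide andropin of the ejaculatory duct, 206-fold.

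Among accessory gland genes Acp53Ea and Acp53C14b were 937-fold and 838-fold higher in males, and Acp36DE, which is needed for sperm storage in the mated female, 765-fold. Acp36DE read -6.80, -6.71 and -6.38 in females, against 3.07, 2.89 and 2.89 in males. Mst57Da read -6.92, -5.96 and -6.87 in females, against 2.5, 2.52 and 2.42 in males, so that female array 2 was the highest female by 0.91. It remained 533-fold higher in males. CG17376, BG642312 and CG9920, for which no role is given here, were 612-fold, 539-fold and 499-fold higher.

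Families with broad somatic roles contained members with this male pattern. Of 27 serpins, inhibitors of serine proteases, 1 was higher in females and 12 were higher in males. Spn28F, Spn77Bb, Spn38F and Spn77Bc were between 510-fold and 266-fold higher in males, with Spn28F at -5.50, -5.34 and -5.49 in females, against 3.48, 3.52 and 3.65 in males. Of 47 odorant-binding proteins 0 were higher in females and 16 higher in males. Obp51a was 283-fold, Obp56g 102-fold and Obp22a 27.8-fold higher in males, while the median of the family was -0.25. Of 83 cytochrome P450 genes 6 were higher in females and 17 higher in males, among them Cyp6a19 at 44-fold in females and Cyp312a1 at 68.6-fold in males. Cyp6a19 read -3.0, -1.43 and -2.98 in males, the pattern of a gene raised in male array 2. These 3 families were listed with their values known, and their counts stand beside 23.8% and 18.9% of all genes. For cytochrome P450 genes, 17 of 83 higher in males was close to the 18.9% of all genes, with a family median of -0.35. The 12 of 27 serpins and 16 of 47 odorant-binding proteins lay above that share.

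Most measured genes of the testis programme were higher in males. Of 26 measured genes of spermatid and sperm structure 1, twe, was higher in females and 23 were higher in males, with a median difference of -7.24. S-Lap7, a leucyl aminopeptidase of sperm, was 455-fold higher in males, ocn 430-fold and Mst77F, a protein of sperm chromatin, 330-fold. Mst77F read -5.91, -5.71 and -5.88 in females, against 2.52, 2.55 and 2.52 in males. For Mst77F the SD was 0.11 in females and 0.02 in males, against a difference of -8.37. twe, the Cdc25 phosphatase of meiosis in both sexes, read 0.95, 0.97 and 1.48 in females, against -0.19, -0.10 and -0.22 in males.

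The regulators that switch on this programme had smaller values. Of 13 meiotic arrest regulators 0 were higher in females and 7 higher in males, with a median of -1.83. tbrd-1, a bromodomain protein, was 15.6-fold higher in males, and the testis TAFs sa and can were 6.89-fold and 4.55-fold higher. aly, comr, tomb, achi, mia and Taf12L were not called, with differences between -0.89 and 0.57. A difference between this list and that of spermatid genes was not tested.

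Testis paralogues of housekeeping genes gave some of the clearest contrasts between members of 1 family. Of 19 pairs of a testis copy and its general copy, the testis copy was higher in males in 18. The proteasome accounts for 12 of these pairs. Its testis copies were higher in males in 11 of 12, while 7 of the 8 general genes were called higher in females. Prosbeta5R1 read -2.74, -2.67 and -2.58 in females, against 2.57, 2.46 and 2.48 in males, whereas the general Prosbeta5 read 0.84, 0.88 and 0.72 in females, against -0.32, -0.26 and -0.57 in males. The copies thus moved in opposite directions, by -5.16 and 1.20. Prosalpha6T and Prosalpha6 differed by -4.73 and 1.47. The exceptions were Prosbeta4R2, a testis copy with a difference of -0.39, and the general Prosalpha3 with 0.79, neither of them called.

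Tubulins, mitofusins and translation factors held further pairs. betaTub85D, the beta-tubulin of the sperm tail, read -5.38, -5.34 and -5.06 in females, against 2.53, 2.48 and 2.52 in males (219-fold). betaTub56D, the general beta-tubulin, was 2.96-fold higher in females. The maternal alpha-tubulin alphaTub67C was 67-fold higher in females, and 123-fold without male array 2. fzo, the mitofusin that fuses mitochondria in spermatids, was 6.62-fold higher in males, while its general counterpart Marf read 0.16, 0.15 and 0.28 in females, against -0.14, 0.01 and -0.11 in males and was not called at 1.21-fold. eIF4E3, a cap-binding protein of the testis, was 47.9-fold higher in males and eIF4E1 2.48-fold higher in females.

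Respiratory chain genes were listed with their values known. Of 53 general subunits of complexes I to IV and ATP synthase 52 were not called, with a median difference of -0.12, a size that has no settled direction, and the exception was COX7C at -5.25. That probeset read -2.44, -2.95 and -3.0 in females, against 2.44, 2.51 and 2.43 in males, and the other probeset of COX7C differed by -0.18. Of 22 duplicated copies of such subunits 21 were higher in males, with a median of -4.14. COX4L, a copy of a cytochrome c oxidase subunit, read -4.09, -4.08 and -4.0 in females, against 2.67, 2.63 and 2.70 in males. The general COX4 read -0.23, -0.20 and -0.28 in females, against -0.14, -0.08 and 0.02 in males. COX5BL, COX7AL and COX6CL differed by -6.46, -6.41 and -6.06, while COX7AL2 differed by -0.32 and was the only copy not called.

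Both adenine nucleotide translocases were measured, among them the gene mutated in the study. sesB, the major adult translocase, read -0.06, -0.14 and -0.09 in females, against -0.03, 0.08 and 0.18 in males, a difference of -0.17 ± 0.09 (adjusted p = 0.118). Ant2, its neighbour on the X chromosome, read -2.19, -2.14 and -1.95 in females, against 2.14, 2.04 and 2.07 in males. Ant2 was 18.1-fold higher in males (-4.18 ± 0.09, adjusted p = 4.27e-10). Each gene has 1 probeset on the array, of the kind (suffix s_at) that can share sequence between transcripts.

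Ribosomal proteins of mitochondria and cytosol were counted separately. Of 69 mitochondrial ribosomal proteins 42 were higher in females and 0 in males, with a median of 1.15. The lowest difference of the list was 0.23 and the highest 2.45. mRpL39 read 0.94, 1.02 and 1.08 in females, against -1.46, -1.31 and -1.55 in males (5.48-fold), and mRpL1 was 4.05-fold higher in females. For cytosolic ribosomal proteins, of which 34 of 86 had a probeset of their own, the median was 0.65, with 4 called in each direction, and with 7 called higher in females when male array 2 was left out. Both counts of 4 lay below the shares of all genes, 23.8% and 18.9%. Copies of these genes were at the extremes. RpS5b was 21-fold higher in females and RpL10Aa and RpS19b 49.8-fold and 13.9-fold higher in males. RpL3 differed by 2.41 on the probeset used and by 0.82 and 1.10 on its other 2.

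**Figure D3:**
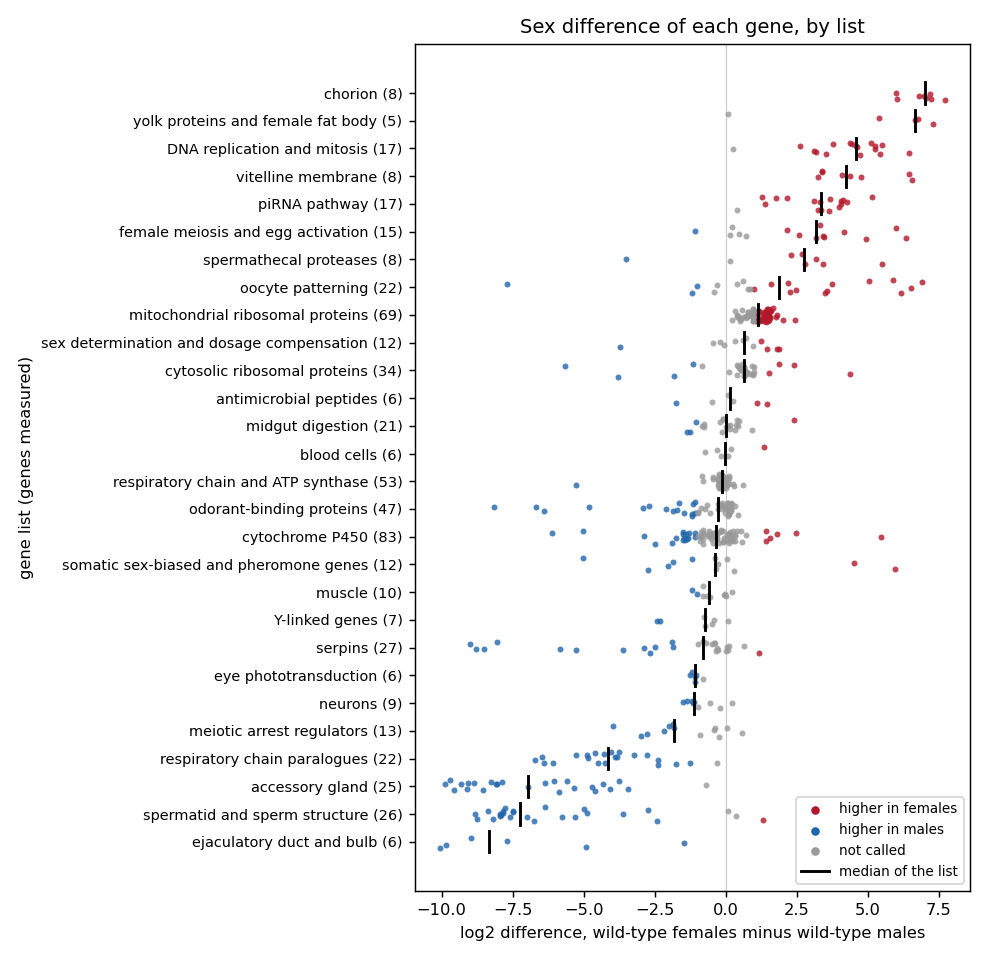
Log2 difference between wild-type females and wild-type males of every measured gene of 28 lists, with the number measured in brackets. Red points were called higher in females, blue points higher in males and grey points were not called, and the black bar is the median of the list, which runs between 7.02 for chorion and -8.32 for ejaculatory duct and bulb.

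Of 12 measured genes of sex determination and dosage compensation 4 were higher in females and 1, dsx, higher in males, with a median difference of 0.66. These counts stand beside 23.8% of all genes higher in females and 18.9% higher in males. On this array dsx has 2 probesets with opposite results. One read -1.86, -1.77 and -1.75 in females, against 1.75, 1.86 and 2.19 in males, a difference of -3.73 (13.2-fold, adjusted p = 5.08e-09). The other read 1.49 and 1.21 in female arrays 1 and 2, against -1.70, -1.23 and -1.53 in males, a difference of 2.84 (7.16-fold, adjusted p = 7.19e-07), and its value in female array 3 was a date serial and was left out of the fit. dsx is spliced to carry a female or a male last exon. Which of these exons each probeset reads was not analysed here.

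tra was 2.37-fold higher in females, at 0.62, 0.75 and 0.72, against -0.36, -0.49 and -0.78 in males. ix, a partner of the female dsx protein, was 3.66-fold higher in females. tra2 differed by 0.98, just under the bound of 2-fold. Sxl differed by 0.32, 1.02 and -0.68 on its 3 probesets, and fru by values between -1.22 and 0.09 on 7. Of these 10 probesets, 1 of Sxl was called higher in females and 1 of fru higher in males. That of Sxl fell under the bound at 0.79 after quantile normalization and 0.88 with arrays centred on their medians. Sex-specific splicing of tra, Sxl and fru is not something that a signal over a shared exon would show.

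The dosage compensation complex, which raises transcription of the single X chromosome of males, was not called higher in males for any member measured. msl-1 was 3.48-fold and msl-3 2.72-fold higher in females. The other probeset of msl-3 differed by 0.72, under the bound. mof and mle differed by 0.72 and 0.60 and were not called. msl-2, whose protein is made in males alone, read -0.09, -0.44 and -0.07 in females, against 0.05, 0.20 and 0.50 in males, a difference of -0.45 that was not called. The roX RNAs had no probeset matched to them alone.

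Y-linked genes are carried by males alone, and few of those measured were called. ARY read -0.99, -0.81 and -1.13 in females, against 1.48, 1.02 and 1.79 in males (5.31-fold), and Pp1-Y2 was 4.91-fold higher in males. Of 7 measured genes these 2 (28.6%) were called higher in males, against 18.9% of all genes. ORY and kl-5, which are transcribed in spermatocytes, were higher in every male array than in any female array but differed by -0.76 and -0.74, under the bound. kl-2 differed by 0.10.

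Markers of tissues that both sexes possess moved less than those of the reproductive tract. Of 9 neuronal genes 0 were higher in females and 5 higher in males, with a median of -1.12, and of 6 phototransduction genes 5 were higher in males, with a median of -1.08. Both male counts lay above the 18.9% of all genes higher in males. The neuronal RNA-binding protein elav read -0.34, -0.36 and 0.04 in females, against 1.02, 1.22 and 1.15 in males (2.55-fold). inaC, an eye protein kinase, was 2.38-fold higher in males. Of 10 muscle genes 2 were higher in males, with a median of -0.60, and 1 without male array 2 or without female array 2, which took sls under the bound. That holds for the probeset of sls used here, at -1.03, and its others differed by -1.40 and -1.32 with all arrays. With 2 of 10 the muscle list was close to the 18.9% of all genes that were higher in males. Of 21 genes of midgut digestion 1 was higher in females and 3 in males, with a median of -0.002, both counts below the 23.8% and 18.9% of all genes. Jon99Fi, a midgut protease, was 5.25-fold higher in females, and Jon25Bi was 2.54-fold higher in males. Mal-A3 overlapped between the sexes, at -2.94, -1.48 and -2.87 in females, against -1.56, -0.92 and -1.70 in males, and its difference of -1.03 became 0.26 after quantile normalization. Opsins and Mhc had no probeset matched to them alone.

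Of 12 somatic genes known for sex-biased expression or pheromone synthesis 2, Fad2 and eloF, were higher in females, 5 were higher in males and 5 were not called, with a median of -0.37. The 2 lay below the 23.8% of all genes higher in females, and the 5 above the 18.9% higher in males. Cyp4d21, an enzyme of the head fat body, was 32.1-fold higher in males. sxe2 was 6.62-fold higher. Of the 6 antimicrobial peptides measured, Drs was 2.76-fold and Def 2.15-fold higher in females, and Mtk 3.39-fold higher in males. These counts also stand beside the 23.8% and 18.9% of all genes. The male values of Mtk were -0.11, -1.05 and 1.75, and the call was lost without male array 3, at -0.99, and without female array 1 or 3, at -1.62 and -1.71. Of 6 blood cell genes, srp, a GATA factor also used in the fat body, was 2.54-fold higher in females and the other 5 were not called. With 1 of 6, blood cell genes lay below the 23.8% of all genes higher in females.

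Probesets of the same gene did not always agree. Of 1094 genes with several probesets, 11 had at least 1 called higher in females and at least 1 higher in males. These were dsx, mud, dlg1, dl, gpp, Sarm, rdgB, Ppcs, CG3857, CG5953 and CG42336. For mud, which orients the mitotic spindle, 1 probeset read 1.71, 1.79 and 1.56 in females, against -0.94, -0.69 and -1.27 in males, while another read -1.41, -1.27 and -1.26 in females, against 1.68, 1.30 and 1.61 in males. The differences were 2.65 and -2.84. For dlg1, a scaffold protein of cell junctions, they were 2.74 and -1.11, and for dl, the dorsoventral transcription factor, 1.85 and -1.20. Opposite probesets of CG5953 (-1.47 and 1.90) both became positive after quantile normalization, at 1.11 and 2.25. The female call of rdgB, at 1.07 as deposited, fell under the bound at 0.97 after quantile normalization and 0.93 after median centring, and the male call of Ppcs, at -1.002, did so at -0.97 without male array 2.

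Sex-biased genes were spread unevenly over the chromosomes. Of 1869 genes on the X chromosome 31.4% were higher in females and 14.6% higher in males, whereas of 9947 genes on arms 2L, 2R, 3L and 3R 22.6% were higher in females and 19.8% higher in males. Among the autosomal arms the share higher in females lay between 21.9% on 3L and 23.2% on 3R, and the share higher in males between 17.6% on 3L and 22.3% on 2L. Strong male bias was rarer on the X, where 1.71% of genes were at least 32-fold higher in males, against 4.11% on the autosomal arms. Leaving out any 1 array kept the X between 30.7% and 31.9% higher in females. Centring the arrays on their medians gave 28.9% higher in females and 16.5% higher in males on the X, and 20.2% and 21.7% on the autosomal arms, where the order of the directions thus turned. These shares are given as a description, without a test.

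**Figure D4:**
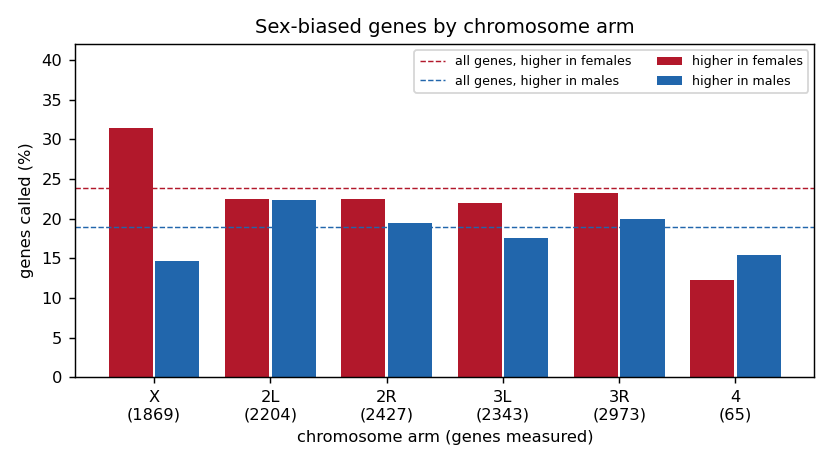
Percent of the genes of each chromosome arm that were called higher in wild-type females (red, left bar) and higher in wild-type males (blue, right bar), with the number of genes measured under each arm. Dashed lines are the shares over all 11981 genes, 23.8% and 18.9%, and the X chromosome stands above the first and below the second.

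Male-biased genes also lay side by side. The longest run of neighbouring measured genes called higher in males held 15 genes on 2R, between CG13539 and tbrd-3, among them Prosbeta5R1 and RpL22-like, with a median difference of -3.58. The next held 10 genes on 3R, between Pif2 and CG31286, with a median of -5.23. The Acp53 seminal fluid genes lay in a run of 7 on 2R with a median of -6.38. The longest runs higher in females held 7 genes, of which there were 4. One on the X held brn, cib, Nsun2, dgt4, Tip60, tyf and GlcAT-I, with a median of 1.69. A run of 5 on 2L held Vm26Ac, Vm26Aa and psd, genes of the vitelline membrane. Genes without a probeset of their own were passed over in these runs.

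The sex difference of wild type was set beside that of sesB1. In sesB1 flies 1916 genes (16.0%) were called higher in females and 1792 (15.0%) higher in males. Of the 2847 genes higher in wild-type females, 1842 (64.7%) were called higher in sesB1 females as well, and of the 2267 higher in wild-type males 1722 (76.0%) were called higher in sesB1 males. The direction was the same for 2835 and 2227 of them. Arc1 and Jon25Bi were the genes called in opposite directions. Median differences were 1.76 in wild type and 1.21 in sesB1 for the genes higher in wild-type females, and -2.94 in wild type and -2.64 in sesB1 for the genes higher in wild-type males. Wild-type values chose these genes, so the smaller sesB1 medians are a description.

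**Figure D5:**
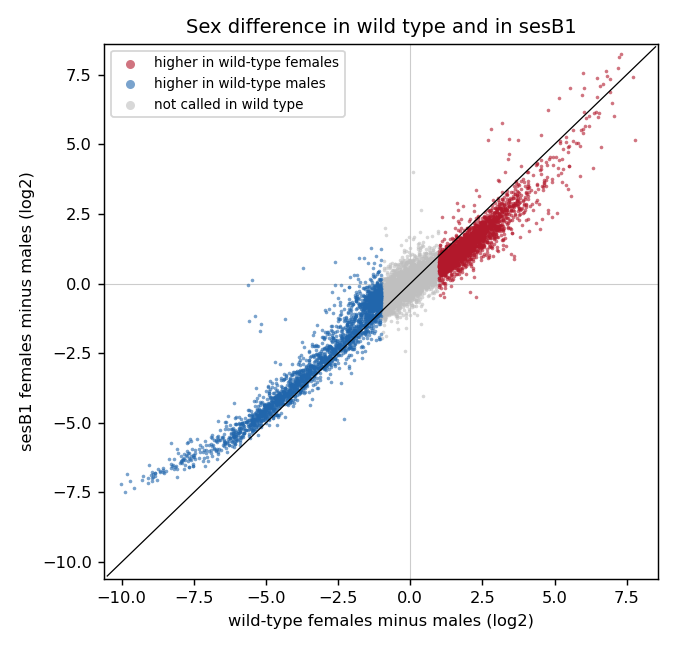
Log2 difference between the sexes in wild type (x axis) and in sesB1 (y axis) for 11981 genes, with genes called higher in wild-type females in red, higher in wild-type males in blue and not called in grey. The diagonal marks equal differences, and a few blue genes near -5 in wild type lie near 0 in sesB1.

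The difference between the sexes was tested against genotype as an interaction, and 642 genes (5.36%) differed by at least 2-fold at an adjusted p under 0.05. Some sesB1 arrays stood apart like wild-type male array 2. Over the 451 male genes, sesB1 female arrays 2 and 4 had medians of -2.79 and -2.27, against -3.08 and -3.10 in sesB1 female arrays 1 and 3, and over the 72 female genes sesB1 male array 4 had a median of -2.42, against values between -3.57 and -3.46 in the other sesB1 males. Without these 3 arrays and wild-type male array 2 the count was 1019 genes. In that fit sesB1 female array 3 was kept. Its median over the 72 female genes was 1.43, against 2.03, 2.03 and 2.26 in the other sesB1 females. Quantile normalization moved the counts down, to 210 probesets more positive and 192 more negative in wild type, against 362 and 387 in the values as deposited. Leaving out sesB1 female array 3 alone gave 284 more positive and 451 more negative. Without sesB1 female arrays 2 and 4 and sesB1 male array 4, 7 male genes were called higher in sesB1 females, among them LManIII and Jon25Bi.

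The largest interactions, of at least 8-fold, were found for 11 genes, which were picked after their values were seen. In 6 of them wild-type males stood above every other group. CG12990 read 0.23, 0.19 and 0.10 in wild-type females, against 5.69, 5.55 and 5.71 in wild-type males. In sesB1 it read -0.05, 0.05, -0.12 and -0.17 in females, against -0.22, -0.20, -0.06 and -0.26 in males. The sex difference of -5.48 in wild type was thus 0.11 in sesB1, with an interaction of -5.59 ± 0.11 (adjusted p = 1.57e-13). CG6788 showed the same, with -5.64 in wild type and -0.07 in sesB1. CG2663, CG18301, CG30427 and CG10657 differed by -5.60, -5.39, -5.16 and -4.36 in wild type and by -1.33, -1.17, -1.45 and -1.27 in sesB1.

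In 3 further genes wild-type females stood below every other group. Gnmt, glycine N-methyltransferase, read -4.53, -4.28 and -5.11 in wild-type females, against 0.46, 0.51 and 0.72 in wild-type males, and its sex difference was -5.21 in wild type and -1.71 in sesB1. CG18179 and LManIII, a lysosomal mannosidase, differed by -3.72 and -2.60 in wild type, and by 0.57 and 0.78 in sesB1 (adjusted p = 0.0123 and 0.0268), so that the sign was the opposite. fit was the reverse, with 0.09 in wild type and 3.99 in sesB1, where all 4 females lay between 2.38 and 2.94 and all 4 males between -1.53 and -1.01. Sdic3, a sperm dynein gene with near-identical neighbouring copies that a probeset may not tell apart, differed by 0.46 in wild type and -4.05 in sesB1, with all 4 sesB1 males between 4.08 and 4.14. All 11 interactions kept their direction without the 4 arrays that stood apart and after quantile normalization.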

How the data were processed

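Whole-fly RNA was measured on 14 Affymetrix Drosophila 2.0 arrays, of which the 6 wild-type arrays were compared. The study's methods name Genespring GX for normalization, and its version and summarisation were not stated there. The deposited values, log2 signals normalized by the authors and centred per probeset on the median over 14 arrays, were recorded here as a score, because 30 of 265328 cells hold spreadsheet date serials between 12785 and 41716. Cells above 100 were set missing, 14 of them in wild-type arrays. The 18922 rows without such a cell all had a median of 0. With no brightness, signal over background is unknown.

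Of 18952 rows 183 controls were left out. One gene symbol was given for 13646 of 18769 probesets, several for 402 and none for 4721, and 13549 matched a current gene (RefSeq, Release 6 plus ISO1 MT), giving 11981 genes. A gene was represented by its first probeset by identifier, in the order _at, _a_at, _s_at, _x_at. Chromosomes and neighbours came from that table. Fits were made with limma 3.58.1 in R 4.3.3, checked on simulated data, and tables with Python 3.11.15.

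The members, the gene lists and the tests were chosen with earlier results of these data known, and 6 lists (respiratory chain, its paralogues, odorant-binding proteins, cytochrome P450, serpins, translocases) were added after values were seen. Named genes are the 12 highest and 12 lowest called genes without overlap, all sex determination genes, both copies of paralogue pairs and up to 4 of each other list. Further members, genes with opposed probesets and the largest interactions were added after their values were seen. Lists are described by counts without a test. Alternatives were other normalizations, fits, thresholds and the omission of arrays. Same-numbered female and male arrays did not deviate together throughout, so numbers were not read as pairs.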

Additional observations from a re-analysis of the deposited data

Results flagged for a closer look

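For 20 of the named genes the sex difference of wild type differed from that of sesB1 by the test of the interaction (limma, wild type minus sesB1, log2, adjusted p under 0.05 and at least 2-fold), and their values are given without an explanation. The interaction was -2.973 for Ebp (-9.83 in wild type, -6.86 in sesB1, adjusted p = 0.0302), -2.116 for Spn28F (-8.99 and -6.88), -2.083 for BG642312 and -1.813 for Cyp312a1, all of them higher in males in both genotypes. Among odorant-binding proteins it was -1.757 for Obp56g, -1.299 for Obp56f and -1.245 for Obp22a. Without the 4 arrays that stood apart the interaction was -1.347 for Ebp, -1.056 for Spn28F, -1.554 for BG642312 and -1.058 for Obp56g, and after quantile normalization that of BG642312 turned to 1.308 and those of Spn28F, Obp56f and Obp22a fell under 2-fold, at -0.41, -0.73 and -0.81. Cyp4d21 had -1.142, which was -0.741 without those arrays (adjusted p = 0.0902), Cyp313a1 -1.08 and the protease CG32833 -1.071. After quantile normalization these 3 were also under 2-fold, at -0.42, -0.35 and -0.33, and without the 4 arrays Cyp313a1 had -0.94.

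For 2 midgut proteases the sign differed between genotypes. Jon25Bi differed by -1.34 in wild type and 1.26 in sesB1, an interaction of -2.607 (adjusted p = 6.66e-06), and Jon99Ci by -1.24 in wild type and 0.73 in sesB1, an interaction of -1.972. The spermathecal proteases CG9897 and CG32834 were higher in females in both genotypes and more so in sesB1, with interactions of -2.58 and -1.764, and so was the antimicrobial peptide Def, with -1.27.

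In the other direction Muc12Ea differed by 7.77 in wild type and 5.16 in sesB1, an interaction of 2.616 (adjusted p = 0.0194), and krimp by 4.26 and 2.64, an interaction of 1.621. RnrL had 1.273. After quantile normalization all 3 were under 2-fold, at 0.57 for Muc12Ea, 0.78 for krimp and 0.02 for RnrL. Of the others srp had 1.158 and the testis proteasome gene Rpt3R, higher in males in both genotypes, 1.148.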

How the results depend on the processing

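The counts of probesets, 3398 higher in females and 2643 in males, stayed within 1.5 times under every other normalization, fit and test tried, and moved with the fold bound alone. The methods' t-test at an unadjusted p gave 3395 and 2637, and after Benjamini-Hochberg adjustment 3388 and 2624. At 4-fold the counts were 1290 and 1648, and with no fold bound 6986 and 4571. Leaving out each array gave 3341 to 3462 and 2609 to 2689 probesets, and 2807 to 2895 and 2239 to 2293 genes. On the X the ranges were 574 to 597 and 270 to 277 genes, and on the autosomal arms 2218 to 2285 and 1942 to 1991. In sesB1 they were 2194 to 2392 and 2003 to 2045 probesets.

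Interactions more positive and more negative in wild type numbered 362 and 387 probesets, and 284 to 482 and 367 to 474 with 1 array left out. Quantile normalization gave 210 and 192, and leaving out the 4 arrays that stood apart, chosen after seeing the data, gave 723 more positive. That choice kept sesB1 female array 3, without which alone 284 were more positive. The cause was not tested. Of 164 named genes Mal-A3 reversed, at 0.261 after quantile normalization, and sls, trp, Arr1, Mal-A3, Mtk, Def and Prosbeta2 lost their call under at least 1 setting.

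The replicate number as a block gave 3398 and 2643 probesets and the same call for all 164 named genes. Deviations of same-numbered arrays correlated at 0.109, -0.122 and 0.138, so the numbers do not pair the arrays. Promoter motifs were planned and not run, since no promoter sequence was used here, and a trend of the spread on brightness is void for centred values.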
